A study of Mus musculus with 4 samples.

Results

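The 8 genes described here are the 4 Notch receptors Notch1, Notch2, Notch3 and Notch4 and the 4 ligands Jag1, Jag2, Dll1 and Dll4, taken by symbol from the 32285 genes of the count tables. Their UMIs (unique molecular identifiers, each counting 1 captured mRNA molecule) were followed through marker-defined cell classes of the mouse fracture callus, the repair tissue around a broken bone. The study prepared 4 single-cell RNA-seq libraries from tibial fractures of wild-type male C57BL/6J mice that were 3 months old. RA mice had received arthritogenic K/BxN serum, which causes inflammatory arthritis, and control mice had received vehicle. Callus was taken 4 or 7 days after fracture, which gives the libraries control 4 days, control 7 days, RA 4 days and RA 7 days. Each library came from a pool of calluses, 4 by the deposited design text and 3 by the methods text, so that no library has a replicate and the spread between animals is not measured. Callus was scraped from the periosteal surface and digested before cells were loaded, and the cells recovered need not mirror those of the tissue.

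Notch receptors are single-pass membrane proteins that bind Jagged or Delta-like ligands on a neighbouring cell. Binding exposes the receptor to cleavage by ADAM proteases and gamma-secretase, and the released intracellular domain joins RBPJ and Mastermind proteins on DNA to switch on genes such as those of the Hes and Hey families. In blood vessels the pathway is known for arterial identity and for the choice between tip and stalk cells, in mural cells (pericytes and vascular smooth muscle) for the maintenance of the vessel wall, in muscle for keeping satellite cells, the muscle stem cells, from differentiating, and in the skeleton for holding progenitors back from maturation.

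With the filter limits of the study, 25479 of 34038 barcodes were kept here, a count that differs slightly from the study's own. The kept cells held a median of 16094 to 17632 UMIs per library. Pairs of libraries shared 5 to 15 cell barcodes. Clustering without the members and the Notch pathway genes gave 20 clusters, which were grouped by fixed markers into endothelial-like (3359 cells), mural-like (832), mesenchymal-like (9094), muscle-like (943), myeloid-like (9724) and T/NK-like (711) classes. There were also 372 neutrophil-like and 301 Schwann-like cells, and 143 cells stayed unnamed. The markers that named the classes are no separate check of them. Among them Cdh5 stood at 994 CPM (a gene's UMIs scaled to the UMI total of the class) in endothelial-like cells. Elsewhere it was at most 21.0 CPM, except for 83.3 CPM in neutrophil-like cells. Rgs5 stood at 3604 CPM in mural-like cells and at most 13.0 CPM elsewhere. The mesenchymal marker Prrx1 was less restricted, at 575 CPM in mesenchymal-like, 514 CPM in mural-like and 152 CPM in muscle-like cells. The T class scored higher for natural killer markers than for T cell markers, with Gzma as its leading gene and Cd3e at 101 CPM, and is called T/NK-like for this reason. The mix of classes differed between libraries. Mesenchymal-like cells made up 18.1% and 19.6% of control and RA cells at 4 days and 42.1% and 49.5% at 7 days, and neutrophil-like cells, led by the granule genes Camp and Ngp, 5.33% of RA cells at 4 days against 0.474% to 0.977% in the other libraries.

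The members are spread over 4 chromosomes in GENCODE M21 on the GRCm38 (mm10) build. Notch1 lies at chr2:26457903-26516663 and Jag1 at chr2:137081456-137116644, both on the minus strand, and Dll4 at chr2:119325784-119335962 on the plus strand. Notch3 (chr17:32120820-32166852, minus), Notch4 (chr17:34564268-34588503, plus) and Dll1 (chr17:15367354-15376872, minus) share a chromosome. Notch2 lies at chr3:98013527-98150361 on the plus strand and Jag2 at chr12:112907819-112929776 on the minus strand. The libraries count the 3′ ends of transcripts, so that a level here belongs to the gene as a whole and not to an isoform.

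Promoters are shown for 4 members with a class-restricted or a divided pattern. Jag2, whose promoter is not shown, was also class-restricted, with 77.0% of its UMIs in endothelial-like cells. Notch4 and Dll4 were highest in arterial-like endothelium, Notch3 in mural-like cells, and Dll1 in both endothelium and differentiating muscle. Each sequence is from RefSeq on GRCm38.p6, written 5′ to 3′ on the strand of the gene, from 250 bases before to 50 bases from the start of transcription. Capitals mark the motifs searched on both strands, the RBPJ core TGGGAA, the AP-1 motif TGANTCA, the ETS motif AGGAAG and the E-box CAGCTG bound by myogenic factors, none of which overlapped another.
Notch4 chr17:34564045-34564344, plus strand: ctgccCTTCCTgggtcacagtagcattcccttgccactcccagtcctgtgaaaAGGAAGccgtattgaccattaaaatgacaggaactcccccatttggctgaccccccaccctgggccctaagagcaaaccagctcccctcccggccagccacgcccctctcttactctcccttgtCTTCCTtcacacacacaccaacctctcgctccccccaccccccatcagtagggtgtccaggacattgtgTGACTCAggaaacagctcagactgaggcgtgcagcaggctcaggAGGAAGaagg
Dll4 chr2:119325534-119325833, plus strand: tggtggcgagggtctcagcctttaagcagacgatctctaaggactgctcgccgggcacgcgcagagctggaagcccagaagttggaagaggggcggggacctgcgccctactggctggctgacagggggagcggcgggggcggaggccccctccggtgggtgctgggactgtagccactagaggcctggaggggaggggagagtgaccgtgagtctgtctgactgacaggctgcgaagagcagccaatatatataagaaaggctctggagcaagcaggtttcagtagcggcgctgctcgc
Notch3 chr17:32166841-32167140, minus strand: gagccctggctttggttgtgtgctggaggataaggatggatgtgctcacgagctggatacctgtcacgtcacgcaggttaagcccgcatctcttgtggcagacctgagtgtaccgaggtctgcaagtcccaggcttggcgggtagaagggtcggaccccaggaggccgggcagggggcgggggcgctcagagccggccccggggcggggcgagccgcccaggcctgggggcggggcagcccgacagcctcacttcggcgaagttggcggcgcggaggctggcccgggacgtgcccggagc
Dll1 chr17:15376883-15377182, minus strand, upstream of 2 RefSeq starts: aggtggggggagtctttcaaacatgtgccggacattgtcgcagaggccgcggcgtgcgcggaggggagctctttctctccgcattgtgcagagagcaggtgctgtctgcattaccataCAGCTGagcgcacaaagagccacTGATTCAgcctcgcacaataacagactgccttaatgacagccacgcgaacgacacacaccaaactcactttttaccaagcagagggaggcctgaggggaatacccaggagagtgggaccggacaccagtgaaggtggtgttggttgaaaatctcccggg

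The Notch4 window held 1 AP-1 motif, whose first base lay 4 bases before the start, and 4 ETS motifs, and had 5 CpG dinucleotides. The 3 other windows held 25 (Notch3), 17 (Dll4) and 15 (Dll1) CpG dinucleotides, against a median of 7 over all 32851 promoters of the same length. The upstream Dll1 window held 1 AP-1 motif and 1 E-box, while the Dll4 and Notch3 windows held none of the 4 motifs. The window of the other Dll1 start, not shown, held 1 ETS motif and 24 CpG dinucleotides, with no AP-1 motif and no E-box. Of all promoters, 7.81% held the AP-1 motif, 35.4% the ETS motif, 16.3% the E-box and 25.6% the RBPJ core. The RBPJ core was found in none of the 9 windows of the 8 members. These matches describe letters in a window and are not binding sites.

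Each receptor had its own order of cell classes, and the classes at the top differed between receptors. Notch1 was highest in endothelial-like cells, Notch2 in myeloid-like cells, Notch3 in mural-like cells and Notch4 in endothelial-like cells. Levels are given as CPM in the order control 4 days, control 7 days, RA 4 days and RA 7 days, with the mean ± SD over these 4 libraries, which differ in condition and time.

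**Figure D1:**
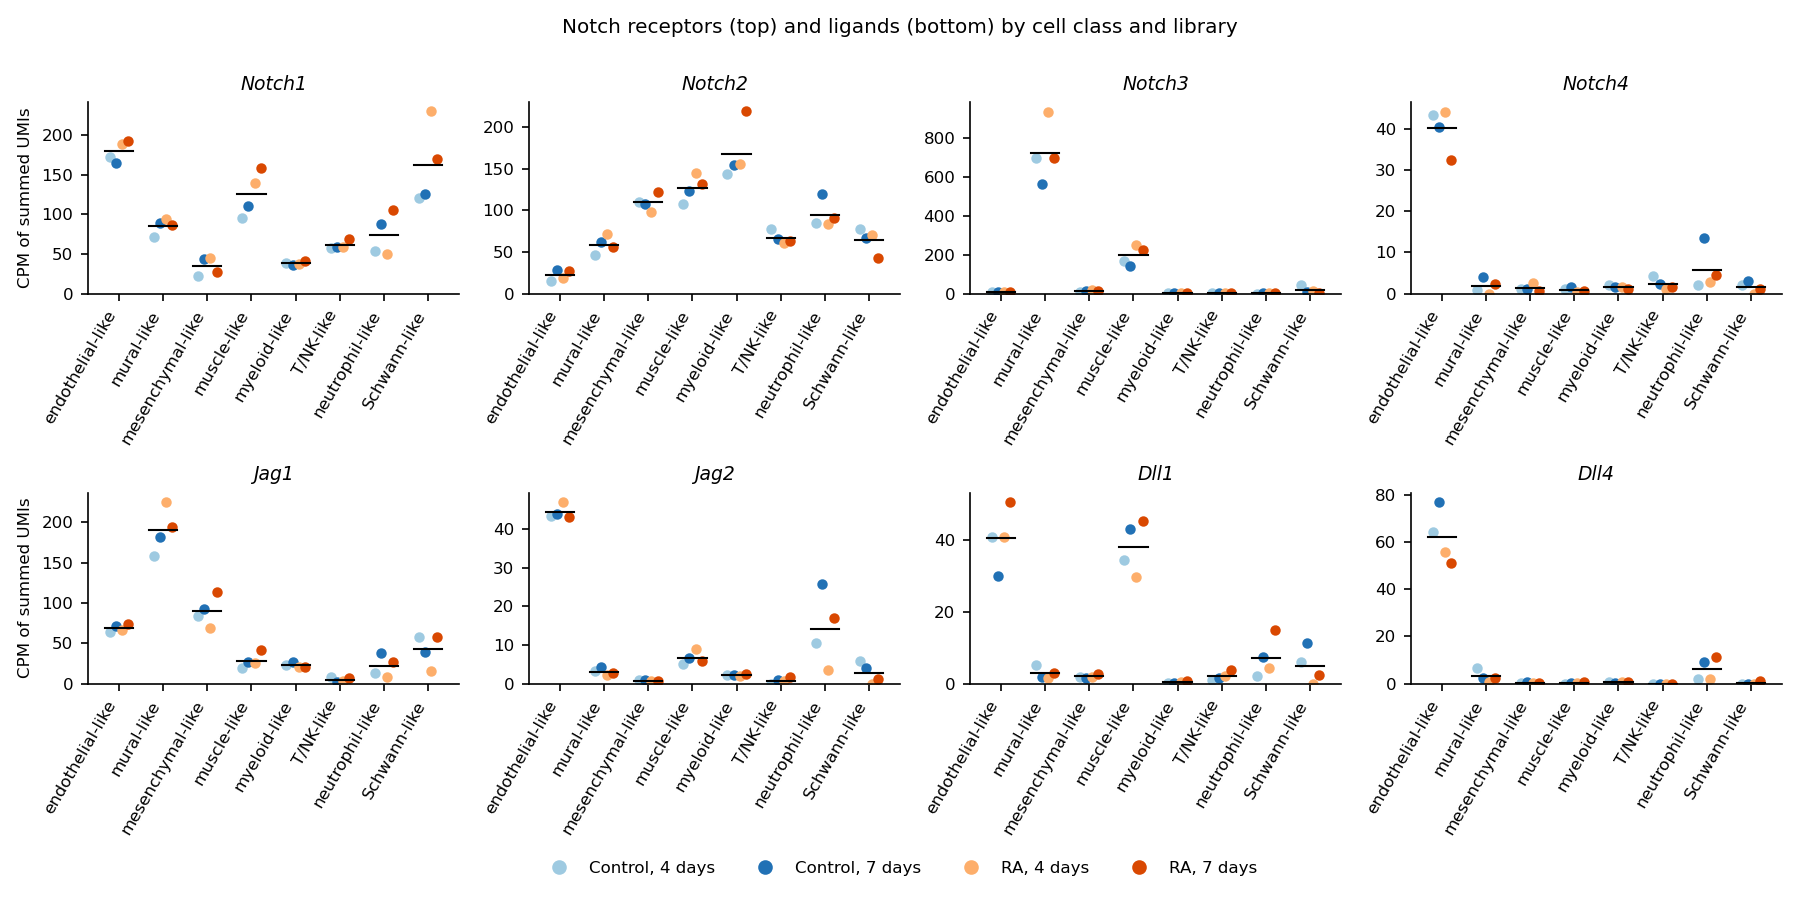
CPM of summed UMIs (vertical axis, linear and scaled for each gene) of the 4 receptors and 4 ligands in 8 cell classes, with 1 point per library coloured by condition and time and a black line at the mean of the libraries. Notch3 stood at 564 to 933 CPM in mural-like cells and 143 to 249 CPM in muscle-like cells, while Notch4, Jag2 and Dll4 were concentrated in endothelial-like cells.

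Notch1, the receptor that carries much of the Notch response of endothelium, stood at 172, 165, 189 and 193 CPM in endothelial-like cells, 180 ± 13.6 CPM (SD, n = 4 libraries). Muscle-like cells held 95.2, 111, 140 and 159 CPM, below endothelial-like cells in each library, and mural-like cells 72.0, 88.6, 93.8 and 87.1 CPM. The ranges of the endothelial-like and muscle-like classes did not overlap. Schwann-like cells, the glia of peripheral nerve, came between these classes at 162 ± 51.1 CPM with a range that overlapped both. T/NK-like cells stood at 60.8 ± 5.58 CPM, myeloid-like cells at 38.1 ± 2.30 CPM and mesenchymal-like cells at 34.3 ± 11.7 CPM, and the last pair could not be ordered, since each was higher in 2 of 4 libraries.

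Notch2, a receptor with known roles in myeloid differentiation and bone, had another order, although muscle-like cells were high for both receptors. Myeloid-like cells held 143, 154, 155 and 219 CPM (168 ± 34.4), followed by muscle-like cells at 108, 123, 145 and 132 CPM (127 ± 15.9) and mesenchymal-like cells at 110, 108, 97.6 and 122 CPM (110 ± 10.00). Myeloid-like cells were above muscle-like cells in 4 of 4 libraries although the ranges overlapped, and muscle-like above mesenchymal-like cells in 3 of 4. Endothelial-like cells, at the top for Notch1, were at the bottom for Notch2 with 14.8, 28.6, 18.4 and 27.3 CPM.

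Notch3, the receptor of the vessel wall, was highest in the vessel wall and in muscle. It stood at 693, 564, 933 and 693 CPM in mural-like cells (721 ± 154) and at 166, 143, 249 and 224 CPM in muscle-like cells (196 ± 49.4). The other classes had means of 1.30 to 16.4 CPM, with myeloid-like cells lowest. The order mural-like, muscle-like and then the rest held in each of the 4 libraries with no overlap of ranges between the first 2 classes or between muscle-like cells and the next class.

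Notch4, known as an endothelial receptor, stood at 43.3, 40.5, 44.2 and 32.5 CPM in endothelial-like cells (40.1 ± 5.33). The next class, neutrophil-like cells, had a mean of 5.73 ± 5.29 CPM, and the remaining classes 0.890 to 2.37 CPM. No range reached that of the endothelial-like class.

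The ligands were divided between vessel lining, vessel wall, connective tissue and muscle. Jag1 was highest in mural-like cells, Jag2 and Dll4 in endothelial-like cells, and Dll1 stood at similar levels in endothelial-like and muscle-like cells.

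Jag1, a Jagged ligand expressed by many tissues, stood at 158, 182, 226 and 195 CPM in mural-like cells (190 ± 28.2). Mesenchymal-like cells held 83.8, 93.0, 69.4 and 114 CPM (89.9 ± 18.5) and endothelial-like cells 64.4, 71.4, 66.8 and 73.6 CPM (69.1 ± 4.19). Mesenchymal-like cells were above endothelial-like cells in each library, but the ranges overlapped, whereas the mural-like range lay above both. T/NK-like cells were lowest at 4.80 ± 3.18 CPM.

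Jag2, the second Jagged ligand, stood at 43.5, 44.1, 47.2 and 43.2 CPM in endothelial-like cells (44.5 ± 1.86), the smallest relative spread of the 8 members in their top class. Neutrophil-like cells followed at 14.2 ± 9.52 CPM and muscle-like cells at 6.65 ± 1.74 CPM, and T/NK-like and mesenchymal-like cells were lowest at 0.763 and 0.767 CPM.

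Dll1, the Delta ligand that myogenic cells present to satellite cells, stood at 40.7, 30.1, 40.8 and 50.7 CPM in endothelial-like cells (40.6 ± 8.38) and at 34.4, 43.2, 29.8 and 45.3 CPM in muscle-like cells (38.1 ± 7.31). The order of these classes could not be settled, since the ranges overlapped and control at 7 days had muscle-like cells on top. Every other class had a mean of at most 7.13 CPM.

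Dll4, the Delta ligand of arteries and tip cells, stood at 64.3, 77.2, 55.9 and 51.1 CPM in endothelial-like cells (62.1 ± 11.4). Neutrophil-like cells had 6.14 ± 4.87 CPM and mural-like cells 3.09 ± 2.51 CPM, and no UMI of Dll4 was counted in the 711 T/NK-like cells, which at a limit of 3 counts allows a share of cells with a UMI, not of cells expressing the gene, of up to 0.422%.

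Neutrophil-like cells, second in the order for Notch4, Jag2 and Dll4, also held UMIs of the endothelial gene Cdh5. Per 100 Cdh5 UMIs they had 5.66 UMIs of Notch4 and 4.88 of Dll4, against 3.96 and 6.21 in endothelial-like cells. Jag2 had 11.2 UMIs per 100 Cdh5 UMIs in neutrophil-like cells and 4.45 in endothelial-like cells. In 12.9% of neutrophil-like cells a Cdh5 UMI was present, and its part in their Notch4, Jag2 and Dll4 levels was not tested.

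Which cells supply most transcripts differs from where the level is high, because the classes differ in size and in UMIs per cell. Endothelial-like cells held 92.7% of the 3912 UMIs of Dll4, 78.5% of the 2945 of Notch4, 77% of the 3373 of Jag2 and 64.7% of the 3750 of Dll1. Of the 34155 UMIs of Jag1, mesenchymal-like cells held 68.2% and mural-like cells, with the higher level, 7.03%. Mural-like cells held 56.6% of the 15368 UMIs of Notch3, with 19.7% in mesenchymal-like and 19.1% in muscle-like cells over the 4 libraries together. The order of this last pair differed between libraries, with 30.5% in muscle-like and 9.17% in mesenchymal-like cells of control at 4 days and 12.7% and 21.3% in RA at 7 days. Notch2 UMIs (55318 in all) came to 48.5% from mesenchymal-like and 41.0% from myeloid-like cells, and those of Notch1 (28942) to 36.6% from endothelial-like, 27.6% from mesenchymal-like and 18.7% from myeloid-like cells. These shares differed between libraries, as did the mix of classes. Myeloid-like cells held 63.8% and 61.3% of the Notch2 UMIs of control and RA at 4 days, and mesenchymal-like cells 56.7% and 67.4% at 7 days. For Notch1 the largest share was endothelial-like in 3 libraries (37.7% to 41.9%) and mesenchymal-like in control at 7 days (42.1%, against 28.4% endothelial-like).

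**Figure D2:**
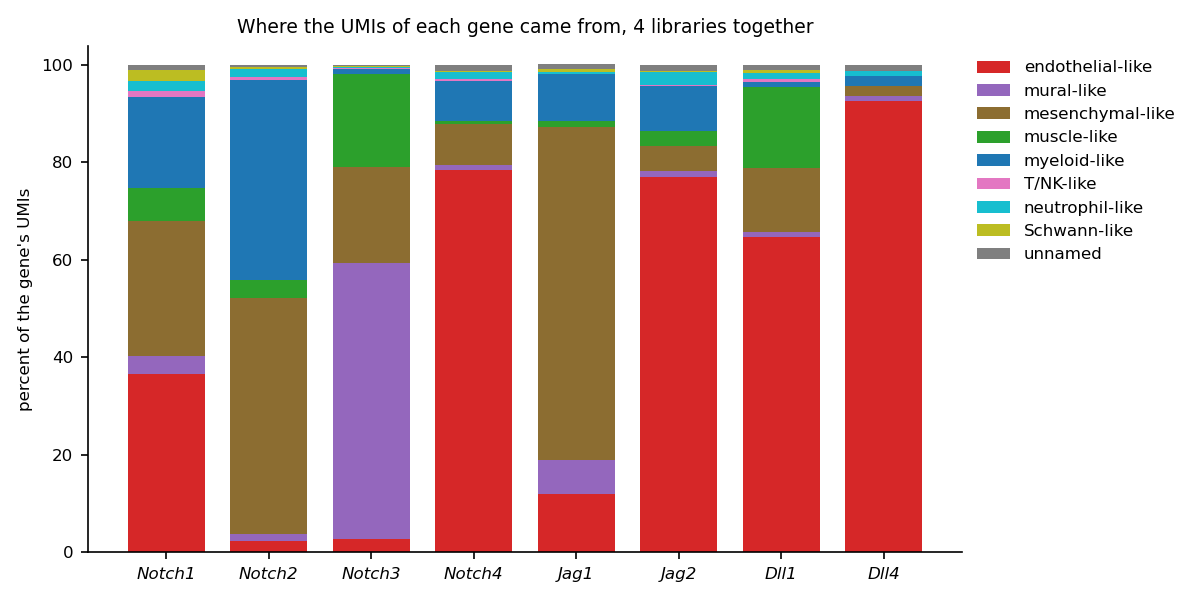
Percent of each gene's UMIs (vertical axis, from 0 to 100) that came from each cell class, with the 4 libraries together and a stacked bar per gene. The bars of Dll4, Notch4, Jag2 and Dll1 are mostly endothelial-like, from 92.7% to 64.7%, that of Jag1 is mostly mesenchymal-like (68.2%) and that of Notch3 mostly mural-like (56.6%).

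The share of cells with at least 1 UMI was taken after thinning each cell at random to 4000 UMIs, the lowest depth kept, so no cell was lost by it. Intervals are exact (Clopper-Pearson, 95%) and, like all intervals given here, cover counting error only. Notch3 was seen in 90.4% of thinned mural-like cells (88.2% to 92.3%), against 1.13% in T/NK-like cells, and Jag1 in 52.4% (48.9% to 55.8%) against 1.55%. In endothelial-like cells the share for Notch1 had an interval of 48.3% to 51.7%, against 11.7% in mesenchymal-like cells. Dll4 was seen in 17.7% of endothelial-like cells (16.4% to 19.0%), Dll1 in 14.9%, Jag2 in 14.0% and Notch4 in 11.7%. The comparison classes held 0.154% (Dll4, mesenchymal-like), 0.563% (Dll1, T/NK-like), 0.281% (Jag2, T/NK-like) and 0.341% (Notch4, mesenchymal-like). Notch2 was seen in 44.3% of myeloid-like and 7.32% of endothelial-like cells. Without thinning, at median depths of 15733 UMIs in endothelial-like and 12992 in mural-like cells, the shares were 89.1% for Notch1, 99.6% for Notch3, 84.6% for Jag1, 42.3% for Dll4, 39.0% for Dll1, 35.8% for Jag2 and 34.7% for Notch4. The thinned share of Cdh5 itself was 95.2% in endothelial-like cells and 0.742% to 2.99% elsewhere except for 9.41% in neutrophil-like cells.

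Within the endothelium the members separated arterial-like, capillary-like, venular-like and lymphatic-like cells. Clustering the endothelial-like cells again gave 335 arterial-like, 1143 capillary-like, 1212 venular-like, 296 lymphatic-like and 171 cycling cells, and 202 cells in sub-clusters led by macrophage or fibroblast genes, rich in doublet calls, stayed unnamed. The Notch genes took no part in this clustering.

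**Figure D3:**
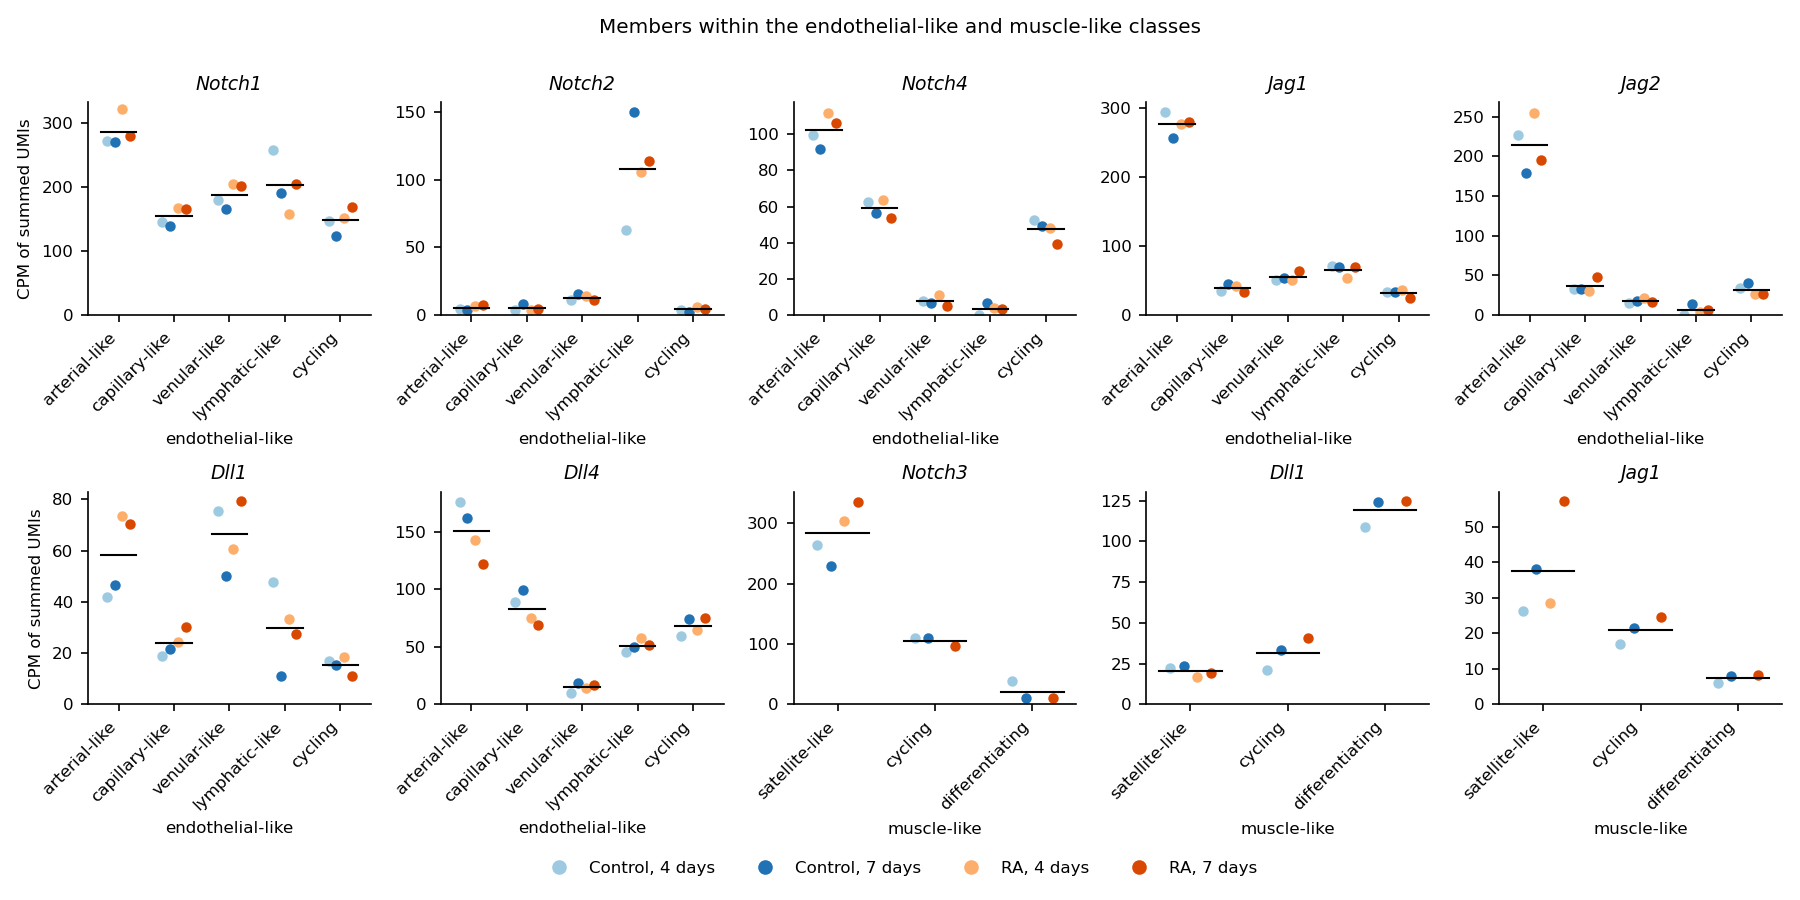
CPM of summed UMIs (vertical axis, linear) of 7 members in 5 endothelial-like sub-classes and of Notch3, Dll1 and Jag1 in 3 muscle-like sub-classes, with 1 point per library of at least 20 cells and a black line at the mean. Jag1, Jag2, Notch4 and Dll4 stand highest in arterial-like cells, Notch2 in lymphatic-like cells, and in muscle Notch3 and Dll1 run in opposite directions from satellite-like to differentiating cells.

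Arterial-like cells stood out for 5 members. Jag2 stood at 227, 179, 255 and 195 CPM in them, and at 30.4 to 47.3 CPM in capillary-like and 15 to 21.2 CPM in venular-like cells. Jag1 stood at 294, 256, 276 and 279 CPM, and at 32.5 to 45.4 CPM in capillary-like and 49.9 to 63.3 CPM in venular-like cells. Its arterial-like levels were above the 190 CPM mean of mural-like cells but overlapped the 208 to 284 CPM of the smooth muscle-like cells among them. For both Jagged ligands each library had arterial-like cells above every other named endothelial sub-class. Notch4 stood at 99.5, 91.8, 112 and 106 CPM in arterial-like cells, at 53.9 to 63.6 CPM in capillary-like cells and at 5.17 to 10.8 CPM in venular-like cells. Dll4 followed the same order with 176, 162, 143 and 122 CPM, then 69.1 to 99.3 CPM and then 9.76 to 18.2 CPM. The receptor Notch4 and the ligand Dll4 thus both had their lowest levels among blood vessels in venular-like cells. Notch1 was also highest in arterial-like cells (272, 270, 322 and 280 CPM) but stayed at 166 to 204 CPM in venular-like cells.

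For Jag1, venular-like cells were above capillary-like cells in each library. Dll1 was the ligand for which arterial-like cells were not the highest of these sub-classes in each library. It stood at 75.6, 50.2, 60.7 and 79.5 CPM in venular-like cells and at 42.1, 46.6, 73.7 and 70.5 CPM in arterial-like cells, with overlapping ranges and venular-like cells on top in 3 of 4 libraries. Capillary-like cells held 18.8 to 30.2 CPM, below both in each library.

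Lymphatic-like cells had a receptor profile of their own. Notch2 stood at 63.1, 150, 106 and 114 CPM in them and at 2.20 to 15.2 CPM in the arterial-like, capillary-like, venular-like and cycling cells. Notch4 was at 0 to 6.60 CPM and Jag2 at 0 to 13.9 CPM, while Notch1 (158 to 257 CPM) and Dll4 (45.4 to 57.7 CPM) were present.

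In muscle, Notch3 and Dll1 differed in opposite directions between satellite-like and differentiating cells. Of the muscle-like cells, 635 were satellite-like, 157 cycling and 117 differentiating (Myog, a transcription factor of fusing myoblasts, at 2193 CPM). The pair of satellite-like sub-clusters had low scores for the satellite markers, 0.55 and 1.14 on the log2 scale above the rest of the class. Notch3 stood at 265, 230, 304 and 336 CPM in satellite-like cells and at 38.7, 11.4 and 10.9 CPM in the differentiating cells of control 4 days, control 7 days and RA 7 days. RA at 4 days had 7 differentiating cells, under the minimum of 20. Dll1 stood at 22.4, 23.3, 17 and 19.4 CPM in satellite-like cells and at 109, 124 and 125 CPM in differentiating cells. Jag1 went with Notch3, at 26.2 to 57.3 CPM and then 5.95 to 8.16 CPM. Notch1 and Notch2 differed less, Notch1 from 114 to 182 CPM in satellite-like cells to 95.7 to 122 CPM in differentiating cells, with overlapping ranges, and Notch2 from 141 to 158 CPM to 86.3 to 105 CPM. Cycling cells lay between them for Notch3 at 97.0 to 110 CPM, and their Dll1 range of 20.9 to 40.6 CPM overlapped that of satellite-like cells.

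Mural-like cells were divided into 334 pericyte-like and 417 smooth muscle-like cells, and both carried Notch3 and Jag1. Notch3 stood at 636, 553, 646 and 693 CPM in pericyte-like cells and at 832, 688, 1130 and 813 CPM in smooth muscle-like cells. Jag1 stood at 113 to 168 CPM and 208 to 284 CPM. Smooth muscle-like cells were higher for both genes in each library. A further 81 mural-like cells stayed unnamed, in sub-clusters led by macrophage, fibroblast or endothelial genes with many doublet calls, and held 28 of the 38 Dll4 UMIs of the class.

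Among the 5 mesenchymal-like clusters, named here by their leading genes, Jag1 was highest in Rorb/Il1rl1 cells in each library and Notch1 in Tnn/Tnc cells in 3 of 4. Jag1 stood at 153, 174, 88.7 and 203 CPM in the Rorb/Il1rl1 cluster, which also has the fibroblast precursor markers Pi16 and Sema3c among its leading genes, and at 20.7 to 54.4 CPM in the Kera/Fmod cluster, which is led by tendon genes such as Tnmd and Scx. Notch1 stood at 44.7, 62.7, 66.3 and 44.9 CPM in the Tnn/Tnc cluster and at 8.24 to 28.6 CPM in the Rorb/Il1rl1 cluster. In RA at 4 days the Col2a1/Ibsp cluster had more Notch1, at 82.2 CPM. The Tnn/Tnc cluster was also second for Jag1 in each library, at 83.7, 96.9, 81.1 and 125 CPM. In the cartilage and bone cluster led by Col2a1 and Ibsp, Notch2 stood at 67.9 to 165 CPM, Jag1 at 35.8 to 71.6 CPM and Notch1 at 30.3 to 82.2 CPM. Notch2 was spread over all 5 clusters, with a level over the libraries together of 83.3 to 154 CPM. Notch4, Jag2, Dll1 and Dll4 were at most 4.08 CPM in each of the 5 clusters over the libraries together.

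Among the 6 myeloid-like clusters Notch2 was highest in monocyte-like and lowest in osteoclast-like cells in each library. It stood at 257, 262, 329 and 325 CPM in the Ly6c2/Gpr141 cluster with monocyte markers and at 79.5, 64.3, 69.0 and 112 CPM in the Mmp9/Acp5 cluster with osteoclast markers, with the other clusters at 97.9 to 280 CPM and between these in each library. Jag1 was highest in the Arg1/Spp1 cluster (40.4 to 44.5 CPM) and at most 25.4 CPM in any library of the other 5. The Ifitm1/Ccr7 cluster, which scored for dendritic markers, had 9.11 to 15.5 CPM of Jag2, against 0 to 2.95 CPM in the others.

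The question of the design is how the callus of RA mice differs from that of control mice at the same time after fracture. With 1 library per condition and time no test was run, and the spread between libraries of 1 condition and time is not known. A member is counted below where its CPM differed by at least 1.5-fold in either direction with at least 50 UMIs over both libraries, beside the share of all genes that did so in the same class, and ratios carry the exact conditional 95% interval of a ratio of counts. At 4 days 5 of 32 member and class pairs with enough UMIs passed, all higher in RA, and at 7 days 10 of 34, 5 of them higher. Over all genes and classes 11.6% and 14.0% of pairs passed.

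**Figure D4:**
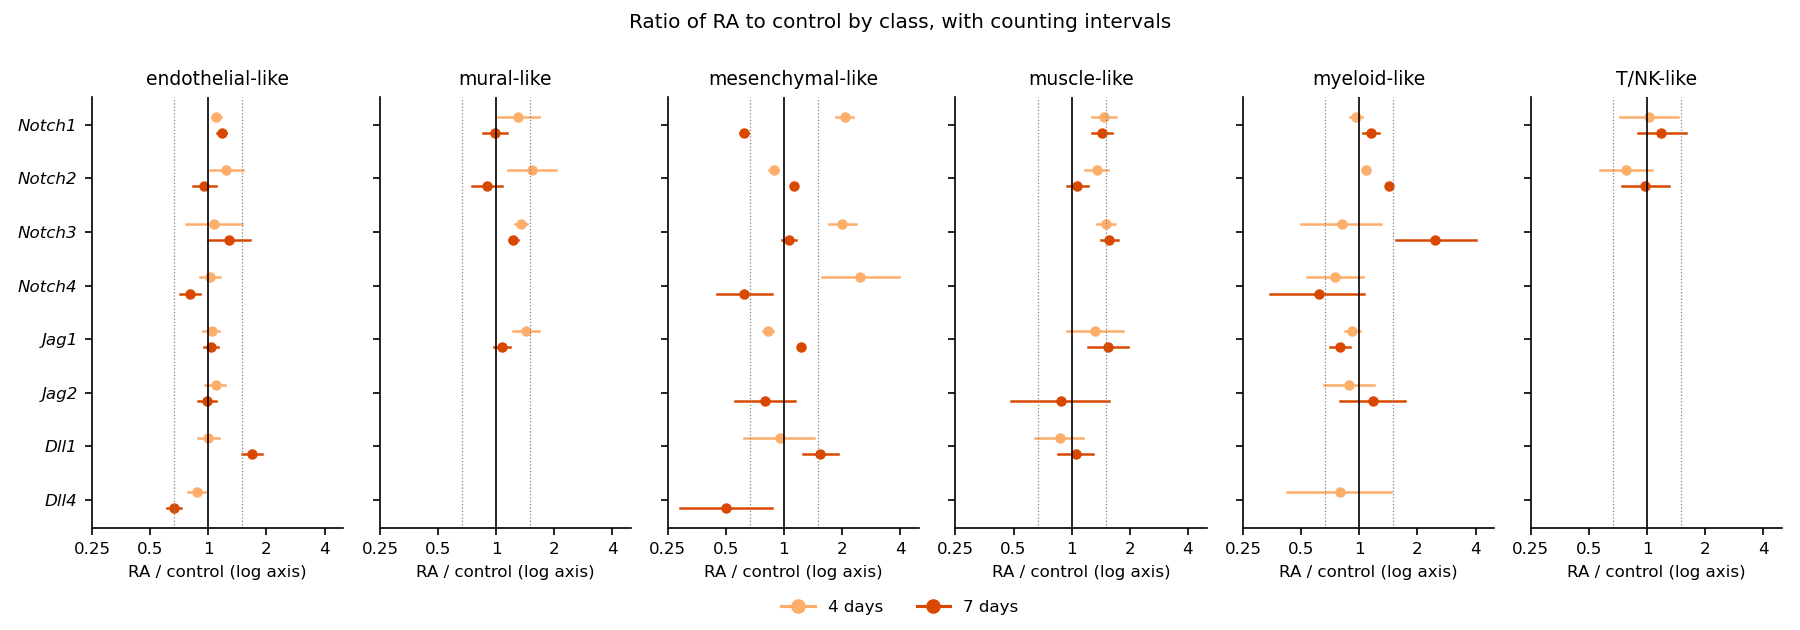
Ratio of RA to control CPM (horizontal axis, log scale) for each member with at least 50 UMIs over both libraries, in 6 classes, at 4 days (light) and 7 days (dark), with lines for the 95% counting intervals, a solid line at 1 and dotted lines at 1.5-fold. In endothelial-like cells Dll1 and Dll4 lie on opposite sides at 7 days (1.68 and 0.663), and in mesenchymal-like cells Notch1 lies above 1 at 4 days (2.07) and below it at 7 days (0.619).

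In endothelial-like cells the Delta-like ligands parted at 7 days. Dll1 stood at 50.7 CPM in RA and 30.1 CPM in control, a ratio of 1.68 (1.5 to 1.89), and Dll4 at 51.1 and 77.2 CPM, a ratio of 0.663 (0.607 to 0.723). Notch4 was lower in RA (ratio 0.803, 0.715 to 0.901) and Notch1 higher (1.17, 1.11 to 1.24), while Jag1 (1.03, 0.95 to 1.12) and Jag2 (0.979, 0.881 to 1.09) had intervals that held 1. These 2 Delta-like ligands were the members counted, 2 of 8, where 11.0% of all tested genes passed. At 4 days 0 of 8 passed, where 7.06% of all genes did, with Dll1 at 1.00 (0.886 to 1.14) and Dll4 at 0.870 (0.784 to 0.964).

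In mesenchymal-like cells Notch1, Notch3 and Notch4 were higher in RA at 4 days, and Notch1 and Notch4 were lower at 7 days. Notch2 stood at 97.6 CPM in RA and 110 CPM in control at 4 days (0.885, 0.839 to 0.933) and at 122 and 108 CPM at 7 days (1.13, 1.10 to 1.16). Notch1 stood at 21.9 CPM in control and 45.2 CPM in RA at 4 days, a ratio of 2.07 (1.87 to 2.28), and at 43.3 and 26.8 CPM at 7 days, a ratio of 0.619 (0.589 to 0.651). The RA library at 4 days and the control library at 7 days thus held the higher values. Notch3 was higher in RA at 4 days, 16.5 against 8.20 CPM (2.01, 1.71 to 2.36), and not at 7 days (1.06, 0.976 to 1.15). The pericyte marker Rgs5 was also higher in these cells in RA at 4 days, 9.04 against 0.963 CPM. Of the 8 mural markers Rgs5 and Mcam were at least 1.5-fold higher, none was at 0, and their summed level was 45.8 against 35.6 CPM, beside 6813 to 7852 CPM in mural-like cells. Per 100 Rgs5 UMIs mesenchymal-like cells held 182 Notch3 UMIs in RA at 4 days and 852 in control, against 26.5 and 17.8 in mural-like cells of the same libraries. Notch4, at 2.55 CPM or less, had ratios of 2.48 (1.58 to 3.96) and 0.624 (0.448 to 0.867) from 61 against 31 and 68 against 87 UMIs. Per 100 Cdh5 UMIs mesenchymal-like cells held 83.6 Notch4 UMIs in RA at 4 days and 17.9 to 36.5 in the other libraries, against 3.96 in endothelial-like cells. Jag1, the main ligand of these cells, stayed within 1.5-fold (0.828, 0.778 to 0.881, and 1.22, 1.19 to 1.26). At 7 days Dll1 was higher (1.54, 1.25 to 1.91) and Dll4 lower (0.504, 0.289 to 0.863), both at 2.58 CPM or less. Dll4 stood at 0.236 CPM in RA and 0.468 CPM in control, from 24 and 38 UMIs. These cells then held 6.32 and 10.1 Dll4 UMIs per 100 Cdh5 UMIs, against 5.34 and 7.87 in endothelial-like cells. For Dll1 these values were 68.9 and 36.1, against 5.29 and 3.08. The part of endothelial RNA in the Dll4 ratio was not tested. In all, 3 of 6 members passed at 4 days, where 11.5% of all genes did, and 4 of 8 at 7 days, where 17.4% did.

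In muscle-like cells Notch3 was higher in RA at both times, at 249 against 166 CPM and 224 against 143 CPM, with ratios of 1.5 (1.35 to 1.67) and 1.57 (1.42 to 1.74). The 4-day ratio was 1.22 under a looser cell filter and 1.34 as a mean over cells, both short of 1.5-fold. Jag1 had ratios of 1.32 (0.941 to 1.84) and 1.55 (1.22 to 1.96), and Notch1 1.47 (1.27 to 1.70) and 1.43 (1.27 to 1.61). At 4 days 1 of 5 members passed, where 19.9% of all genes did, and at 7 days 2 of 6, where 21.7% did.

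Mural-like cells had higher Notch1, Notch2, Notch3 and Jag1 in RA at 4 days. Notch1 had ratios of 1.30 (1.02 to 1.66) at 4 days and 0.984 (0.852 to 1.14) at 7 days. Notch3 had ratios of 1.35 (1.25 to 1.45) and 1.23 (1.16 to 1.30), Jag1 1.43 (1.22 to 1.67) and 1.07 (0.969 to 1.18), and Notch2 was the member counted at 4 days (1.53, 1.15 to 2.05). Smooth muscle-like cells made up 65.8% of the class in RA and 48.5% in control at that time. Over pericyte-like and smooth muscle-like cells, with their control makeup kept, the 4-day ratios were 1.41 for Notch2, within 1.5-fold, 1.14 for Notch1, 1.21 for Notch3 and 1.28 for Jag1. The unnamed mural-like cells, 11 in control and 5 in RA, were under the minimum of 20 and left out of these ratios. In pericyte-like cells at 4 days, 20 of them in RA, Notch1 stood at 54.5 CPM in RA and 63.4 CPM in control. Notch3 stood there at 646 and 636 CPM, Notch2 at 31.1 and 21.1 CPM and Jag1 at 127 and 113 CPM. In all, 1 of 4 members passed at 4 days, where 11.9% of all genes did, and 0 of 4 at 7 days, where 10.5% did, and RA at 4 days had 73 mural-like cells.

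In myeloid-like cells Notch2 stood 1.42 times as high in RA at 7 days (1.37 to 1.48), short of 1.5-fold, and 1.08 times at 4 days (1.05 to 1.12). Jag1 was lower in RA at 7 days (0.794, 0.704 to 0.895). The members counted at 7 days were Notch3 (2.47, 1.54 to 4.00) and Notch4 (0.615, 0.344 to 1.06), at 2.40 CPM or less and from 46 against 32 and 19 against 53 UMIs, which makes 2 of 6 where 12.2% of all genes passed. Rgs5 stood at 5.37 CPM in RA and 1.34 CPM in control in the same cells (103 against 44 UMIs), and the summed level of the 8 mural markers at 15.4 and 15.7 CPM. Per 100 Rgs5 UMIs these cells held 44.7 and 72.7 Notch3 UMIs, against 20.8 and 14.5 in mural-like cells. In the Arg1/Spp1 cluster at 7 days Notch3 stood at 3.33 CPM in RA and 0.768 CPM in control. The satellite marker Pax7, with 12 UMIs in this cluster over all libraries, stood at 1.23 and 0.0853 CPM. Notch3 stood at 1.34 and 1.10 CPM in Ccl8/Cbr2 and at 0.737 and 0.788 CPM in H2-Aa/Cd74. The part of mural or muscle RNA in the Notch3 ratio was not tested. At 4 days 0 of 7 members passed in myeloid-like cells, where 8.45% of all genes did. T/NK-like cells had enough UMIs for Notch1 and Notch2 only, and 0 of 2 passed at 4 days and 0 of 2 at 7 days, where 14.9% and 9.46% of all genes did.

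The ratios of the classes were next taken within their clusters and sub-classes, since the makeup of a class can differ between libraries. Among endothelial-like cells at 7 days, venular-like cells made up 41.1% in RA and 27.9% in control, and capillary-like cells 30.4% and 38.6%. Dll1 was higher in RA within venular-like cells (79.5 against 50.2 CPM, ratio 1.58, 1.33 to 1.90), arterial-like cells (1.51, 1.12 to 2.06), capillary-like cells (1.39, 1.10 to 1.76) and lymphatic-like cells (2.51, 1.39 to 4.80). Dll4 was lower within arterial-like (0.753, 0.623 to 0.910) and capillary-like cells (0.695, 0.610 to 0.791), and in venular-like cells, where it was low throughout, the interval held 1 (0.933, 0.678 to 1.29). It was not lower in lymphatic-like cells (51.4 CPM in RA and 49.9 CPM in control) or in cycling cells (74.9 and 74.1 CPM). In cycling cells Dll1 stood at 10.9 CPM in RA and 15.4 CPM in control. With the makeup of the control library kept, the 7-day ratios of the class were 1.45 for Dll1 and 0.761 for Dll4, both within 1.5-fold, and that of Notch4 was 0.957 in place of 0.803. At 4 days Dll1 was higher in RA in arterial-like cells (1.75, 1.23 to 2.51) and lower in venular-like cells (0.803, 0.671 to 0.959).

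**Figure D5:**
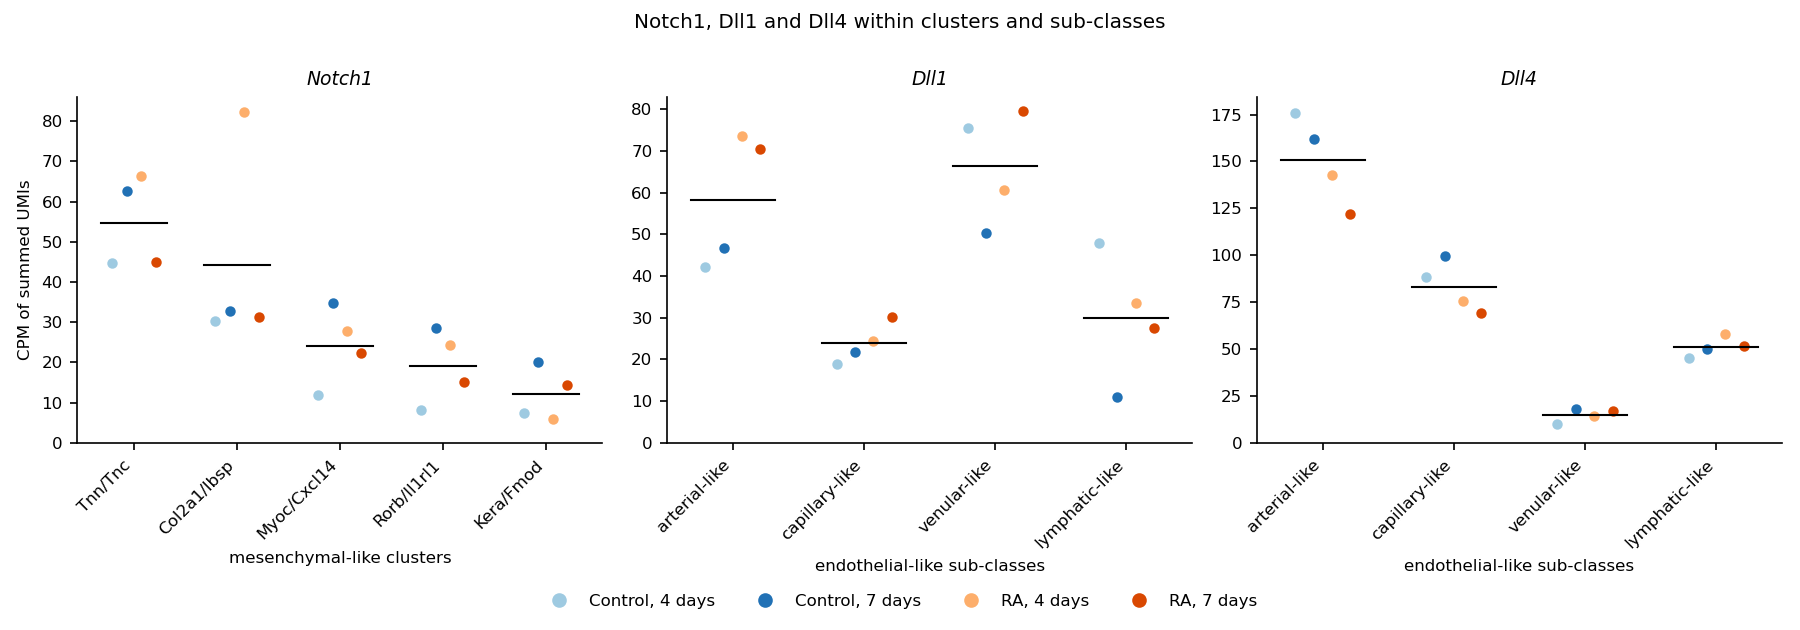
CPM of summed UMIs (vertical axis, linear) of Notch1 in the 5 mesenchymal-like clusters and of Dll1 and Dll4 in 4 endothelial-like sub-classes, with 1 point per library and a black line at the mean. For Notch1 the RA 4-day point lies above the control 4-day point in 4 clusters and the RA 7-day point below the control 7-day point in all 5, and for Dll4 the RA points of arterial-like and capillary-like cells lie below the control points of the same time.

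The Notch1 pattern of mesenchymal-like cells was present in most of their clusters. Kera/Fmod, with too few UMIs for a ratio at 4 days, went the other way then, at 5.91 CPM in RA and 7.47 CPM in control. At 4 days Notch1 was higher in RA in each of the 4 clusters with enough UMIs, at 82.2 against 30.3 CPM in Col2a1/Ibsp (2.71, 1.96 to 3.80), 24.2 against 8.24 CPM in Rorb/Il1rl1 (2.94, 2.09 to 4.17), 27.8 against 11.8 CPM in Myoc/Cxcl14 (2.35, 1.85 to 3.00) and 66.3 against 44.7 CPM in Tnn/Tnc (1.48, 1.31 to 1.68). At 7 days it was lower in RA in all 5 clusters, with ratios of 0.523 in Rorb/Il1rl1 (0.450 to 0.608), 0.642 in Myoc/Cxcl14 (0.579 to 0.711), 0.712 in Kera/Fmod (0.541 to 0.937), 0.716 in Tnn/Tnc (0.667 to 0.768) and 0.951 in Col2a1/Ibsp, where the interval held 1 (0.793 to 1.14). With the control makeup kept the class ratios of Notch1 were 1.82 at 4 days and 0.708 at 7 days, the latter within 1.5-fold. Those of Notch4 were 2.42 and 0.703, the latter also within 1.5-fold. Jag1 and Notch2 had no such shared direction. In the Rorb/Il1rl1 cluster Jag1 had ratios of 0.579 (0.509 to 0.657) at 4 days and 1.16 (1.10 to 1.22) at 7 days, and Notch2 0.566 (0.50 to 0.641) and 1.61 (1.51 to 1.71). In the Col2a1/Ibsp cluster the 4-day ratios were 2.00 for Jag1 (1.47 to 2.76) and 1.45 for Notch2 (1.14 to 1.85).

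For muscle-like cells the Notch3 and Jag1 ratios within satellite-like cells were smaller than those of the class. Satellite-like cells made up 57.4% and 58.9% of the class in control and 81.0% and 77.1% in RA, and within them Notch3 had ratios of 1.15 (1.01 to 1.30) at 4 days and 1.46 (1.30 to 1.64) at 7 days. Both are below 1.5-fold. With the control makeup of satellite-like, cycling and differentiating cells kept, the 7-day ratios were 1.31 for Notch3 and 1.38 for Jag1, both within 1.5-fold. The unnamed muscle-like cells, 6 of them in RA, were left out of these ratios. Within satellite-like cells Jag1 had 1.09 (0.722 to 1.64) and 1.5 (1.13 to 2.01). Notch1 stood there at 140 CPM in RA and 114 CPM in control at 4 days, and at 182 and 126 CPM at 7 days. In differentiating cells at 7 days Dll1 stood at 125 CPM in RA and 124 CPM in control (1.01, 0.755 to 1.34). The 7-day difference of Notch2 in myeloid-like cells was present within the Mmp9/Acp5 (1.74, 1.34 to 2.25), Ccl8/Cbr2 (1.47, 1.35 to 1.60), H2-Aa/Cd74 (1.43, 1.32 to 1.55), Ly6c2/Gpr141 (1.24, 1.06 to 1.45) and Arg1/Spp1 clusters (1.15, 1.06 to 1.24), and in Ifitm1/Ccr7 cells the interval held 1 (1.11, 0.925 to 1.34).

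Between 4 and 7 days 3 of 33 pairs passed in control and 8 of 32 in RA, where 12.9% and 16.1% of all gene and class pairs did. These comparisons share their libraries with those above. In control endothelial-like cells Notch2 was the member counted (1.94, 1.64 to 2.29), which makes 1 of 8 where 9.20% of all genes passed, and lymphatic-like cells, with the highest endothelial Notch2, were 4.38% of the class at 4 days and 9.73% at 7 days. Without lymphatic-like cells the ratio was 1.18. In RA 1 of 8 passed where 9.68% did, Notch3 (1.55, 1.16 to 2.10) at 9.37 CPM or less. Rgs5 in these cells stood at 0.649 CPM at 4 days and 5.46 CPM at 7 days, while the 8 mural markers summed to 274 and 214 CPM, and its part in the Notch3 ratio was not tested. Notch4 was lower at 7 days (0.735, 0.650 to 0.830). In mural-like cells 0 of 4 passed in either condition, where 12.4% (control) and 16.6% (RA) of all genes did, and Notch3 was lower at 7 days in both (0.814, 0.760 to 0.871, and 0.743, 0.697 to 0.791). In mesenchymal-like cells of control Notch1 (1.98, 1.82 to 2.16) and Notch3 (1.54, 1.34 to 1.77) were higher at 7 days, 2 of 7 where 17.9% of all genes passed. Rgs5 stood at 0.963 and 6.70 CPM in these libraries and the 8 mural markers summed to 35.6 and 97.9 CPM, with 4 of 7 at least 1.5-fold higher, and their part in the Notch3 ratio was not tested. In RA Notch1 (0.594, 0.553 to 0.638) and Notch4 (0.262, 0.183 to 0.376) were lower and Jag1 higher (1.64, 1.55 to 1.72), 3 of 7 where 17.1% did. With the 4-day makeup kept the Notch1 ratio was 0.668, just within 1.5-fold. The other pairs counted in RA were Jag1 (1.60, 1.18 to 2.19) and Dll1 (1.52, 1.14 to 2.04) in muscle-like cells, and 2 in myeloid-like cells. The latter were Notch3 (2.95, 1.82 to 4.84) and Notch4 (0.630, 0.354 to 1.07), from 46 against 30 and 19 against 58 UMIs. The Dll1 ratio reversed under the looser cell filter, as given below. For these 2 classes the share of all genes is not given between times, so their counts cannot be set against it.

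In whole callus, with all kept cells of a library summed, Dll1 and Notch3 differed most at 7 days. Dll1 stood at 9.26 CPM in RA and 5.92 CPM in control (1.56, 1.44 to 1.71), Notch3 at 40.7 and 27.7 CPM (1.47, 1.42 to 1.53), Jag1 at 95.5 and 73.4 CPM (1.30, 1.27 to 1.33) and Dll4 at 6.73 and 8.46 CPM (0.795, 0.731 to 0.864). With the class mix of control kept these ratios were 1.49, 1.26, 1.16 and 0.686. At 4 days all 8 ratios lay between 0.828 (Dll4) and 1.15 (Notch1 and Notch3), and the Notch3 ratio at the control mix was 1.43. Notch1 at 7 days, where its mesenchymal-like level was lower and its endothelial-like level higher in RA, had a whole-callus ratio of 0.981 (0.953 to 1.01).

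The rest of the pathway was followed through a list of 60 genes. In endothelial-like cells 54 of them had enough UMIs at 4 days, of which 1 was at least 1.5-fold higher and 2 lower in RA, and 55 at 7 days, with 4 higher and 1 lower. These and the counts that follow came to a smaller share of the list than of all genes, as given above, in each of the 6 classes at both times. In mesenchymal-like cells 6 of 56 were higher and 0 lower at 4 days, and 2 of 58 higher and 6 lower at 7 days, where 11.5% and 17.4% of all genes passed. The median log2 ratio of the list in mesenchymal-like cells was 0.11 at 4 days and 0.02 at 7 days, beside 0.04 and -0.04 over all genes. That median was 0.23 and 0.09 in muscle-like cells, beside 0.05 and -0.00, and -0.01 and -0.06 in T/NK-like cells, beside 0.01 and 0.02. In muscle-like cells 7 of 46 were higher and 1 lower at 4 days and 5 of 48 higher at 7 days. In mural-like cells 1 of 46 was higher and 1 lower, then 2 of 52 higher and 2 lower, and in myeloid-like cells 0 of 53 higher and 1 lower, then 3 of 53 higher and 2 lower. T/NK-like cells had 3 of 33 higher and 1 lower at 4 days and 2 of 36 higher and 1 lower at 7 days. No gene of the list passed the same way at both times in endothelial-like, mural-like or myeloid-like cells, the classes where a member was highest. In muscle-like cells Maml2, Tle4 and Myc did, genes named after their values were seen in this class.

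Levels of the rest of the machinery are given per gene across classes. Hes1, a transcriptional repressor switched on by Notch, had a mean of 354 CPM in mural-like, 266 CPM in mesenchymal-like and 222 CPM in endothelial-like cells and 15.9 CPM in myeloid-like cells. Among target genes chosen after their values had been seen, Nrarp, a feedback inhibitor, stood at 186 CPM in mural-like and 46.9 CPM in endothelial-like cells, and Heyl at 154 CPM in muscle-like and 89.9 CPM in mural-like cells, the classes with the highest Notch3. In mesenchymal-like cells Heyl had ratios of RA to control of 2.38 at 4 days and 0.788 at 7 days, and Nrarp 1.89 and 0.515. Hey1 (1.70 and 0.767) and Hey2 (1.10 and 0.600), like Heyl and Nrarp, were above 1 at 4 days and below it at 7 days. Their levels in mesenchymal-like cells were low, at 8.25 (Heyl), 1.54 (Nrarp), 10.0 (Hey1) and 1.17 CPM (Hey2). Mural-like cells held 89.9, 186, 28.3 and 35.8 CPM, and the part of mural RNA in these ratios was not tested. Hes1 (1.22 and 1.17) and Myc (1.28 and 1.60) were above 1 at both times in mesenchymal-like cells, and Ccnd1 (0.846 and 0.729) was below 1 at both. Of the other target genes of the naming rule, Ccnd1, a cyclin of early cell cycle, stood at 158 CPM in endothelial-like and 463 CPM in Schwann-like cells, and Myc at 75.3 CPM in mesenchymal-like cells. Rbpj, the DNA-binding partner, was highest in myeloid-like cells at 311 CPM, with ratios of RA to control of 0.887 at 4 days and 1.61 at 7 days. Its coactivators Maml2 and Maml3 stood at 372 CPM in endothelial-like and 340 CPM in Schwann-like cells. Lfng, a fucose-elongating glycosyltransferase that alters ligand choice, stood at 52.0 CPM in myeloid-like and 45.4 CPM in T/NK-like cells. The protein fucosyltransferase gene Pofut1 had its highest mean at 20.3 CPM in mesenchymal-like cells and the glucosyltransferase gene Poglut1 at 24.9 CPM in endothelial-like cells.

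Ligand endocytosis and receptor cleavage genes were present in each class. The ubiquitin ligase gene Mib1, which primes ligands, ranged over 46.9 to 150 CPM and the adaptor gene Epn1 over 39.2 to 105 CPM, while Epn2 ranged from 0.744 CPM in T/NK-like to 154 CPM in mural-like cells. The protease gene Adam10 ranged over 63.1 to 236 CPM, Adam17 over 47.8 to 154 CPM and the gamma-secretase subunit gene Psenen over 92.1 to 155 CPM. Numb, whose protein promotes loss of the receptor, stood at 208 CPM in neutrophil-like and 192 CPM in endothelial-like cells. Of the ubiquitin ligase genes, Itch stood at 139 CPM in Schwann-like and 115 CPM in T/NK-like cells, and Fbxw7 at 146 CPM in T/NK-like cells. Of the repressors, Ncor1 ranged over 163 to 339 CPM, Spen over 61.1 to 143 CPM and Tle4 over 37.1 to 266 CPM. The non-canonical ligand gene Dlk1 stood at 103 CPM in mural-like and 81.4 CPM in mesenchymal-like cells, and the microfibril genes Mfap2 and Mfap5 at 240 and 822 CPM in mesenchymal-like cells.

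The genes whose pattern was most like that of each member were found by Pearson's r of log2(CPM + 1) over 32 sums of class and library, among 11007 genes. These sums share their libraries, and the values are a description. Dll4 went with Sox17 (r = 0.973), Rassf9 (0.968) and Sox7 (0.955), of which Sox17 and Sox7 encode endothelial transcription factors, and Notch4 with Stap2 (0.925), Hoxb9 (0.925) and Prnd (0.921). Notch3 went with Cap2 (0.953), Jph2 (0.944) and Pakap (0.934), and Jag2 with Upp1 (0.934), Podxl (0.921) and Myct1 (0.903). Jag1 went with 6030407O03Rik (0.927), Rras (0.923) and Tsc22d1 (0.918), and Dll1 with Sema6a (0.915), Palmd (0.912) and Myzap (0.887). The widely expressed receptors had lower values, Notch2 with Runx1 (0.884), Dtnbp1 (0.861) and Sgpp1 (0.851) and Notch1 with Tspan15 (0.857), Mmp15 (0.846) and Hid1 (0.844).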

How the data were processed

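The deposited files hold raw UMI counts per gene and cell, which the authors made with Cell Ranger 7.0.1 on mm10 per the submitters' processing notes, 1 matrix per library. Cells with 4000 to 50000 UMIs, 2000 to 7000 detected genes and at most 8% mitochondrial UMIs were kept, as in the study's methods, which left 83405494 to 156567619 UMIs per library. Libraries were integrated by canonical correlation analysis and clustered at a resolution of 0.5 in Seurat 5.3.0 (R 4.3.3) on 1989 variable genes, with 11 Notch pathway genes left out. Clusters were named by marker score (log2 of CPM with 10 CPM added; at least 1.5, 0.5 above the next class, at least 3 markers detected, at most 25% doublet calls), thresholds set after the clusters had been seen. Sub-clusters of endothelial-like, mural-like and muscle-like cells were scored against the rest of their class with lower limits (at least 0.4, 0.1 above the next), also set after they had been seen. The classes need not match the study's clusters. Scrublet (scanpy 1.11.5) called 592 doublets (2.32%), which were kept except in an alternative.

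UMIs were summed per class and library with at least 20 cells and scaled to CPM (Python 3.11.15, numpy 2.4.6, scipy 1.17.1, pandas 2.3.3, matplotlib 3.10.9). With 1 library per condition and time no test was run. Ratios have exact conditional intervals and shares of cells Clopper-Pearson intervals. A member counted as past the fold at 1.5 in either direction with at least 50 UMIs over both libraries, and the code was tested on simulated data. The text names all 8 members, for each the 3 genes with the most similar pattern among those reaching 20 CPM, and up to 3 pathway genes with the most UMIs per functional group. The members and lists were chosen with earlier results of these data known. Alternatives were a looser cell filter, no integration, a resolution of 1, doublets left out, neutrophil-like cells joined to the myeloid class, lymphatic-like cells left out, means over cells, TMM scaling, a fold of 2, a pseudocount of 1 CPM, at least 10 UMIs, no thinning, and each library left out.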

Additional observations from a re-analysis of the deposited data

Results flagged for a closer look

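In mesenchymal-like cells the ratio of RA to control was past 1.5-fold in opposite directions at the 4-day and 7-day time points for 2 receptors. The share of all genes that did so in these cells was not taken, so these 2 cannot be set against it. Of the pathway list, Lfng (1.66 and 0.627) and Nrarp (1.89 and 0.515) did so too. Notch2 (0.885 and 1.13) and Jag1 (0.828 and 1.22) also lay on opposite sides of 1, but within 1.5-fold. So did Dll1 (0.951 and 1.54) and Dll4 (1.44 and 0.504), at 2.58 CPM or less, with 8 and 7 UMIs of Dll4 at 4 days. Notch1 had a ratio of 2.07 at 4 days and 0.619 at 7 days. Notch4 had a ratio of 2.48 at 4 days and 0.624 at 7 days, at 2.55 CPM or less. With the cluster makeup of the control library kept, the 7-day ratios were 0.708 for Notch1 and 0.703 for Notch4, both within 1.5-fold. Each time point has 1 library per condition, and the difference between the time points was not tested.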

How the results depend on the processing

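The design has 1 library per condition, so animal, pool and library cannot be told apart from treatment or time, and depth limits the members at a few CPM. An additive model of condition and time over the 4 libraries, which would leave 1 residual degree of freedom, was not fitted. Of 96 alternative values of the level differences between classes (log2), 92 kept their direction and moved by less than the spread over libraries. Dll1 in endothelial-like over muscle-like cells (0.08) was -0.16 under the looser cell filter and -0.04 without RA at 4 days. Notch2 in myeloid-like over muscle-like cells (0.39) was 0.80 with TMM scaling, and Notch3 in mural-like over muscle-like cells (1.89) was 1.69 as a mean over cells. Leaving out each library gave -0.04 to 0.28 for Dll1, 3.83 to 4.47 for Dll4, 0.88 to 1.19 for Jag1, 2.50 to 2.71 for Jag2, 0.42 to 0.61 for Notch1, 0.28 to 0.49 for Notch2, 1.83 to 1.98 for Notch3 and 3.44 to 3.89 for Notch4. The cause of these moves was not tested. The 5 pairs past the fold at 4 days were 3 as means over cells, 3 at a fold of 2 and 11 with at least 10 UMIs. The 10 at 7 days were 1 at a fold of 2, 5 with a pseudocount of 1 CPM and 18 with at least 10 UMIs. Between times, the 3 in control were 0 at a fold of 2 and 11 with at least 10 UMIs, and the 8 in RA were 14 under the looser filter, 2 at a fold of 2 and 16 with at least 10 UMIs. The share of all genes past the fold was not taken at these alternative settings, so these counts cannot be set against it. Of 234 alternative values of single ratios 224 stayed close, 9 moved and 1 reversed, Dll1 in muscle-like cells of RA between times (1.52, and 0.998 under the looser filter). Without thinning the share of cells with a UMI in the top class minus that in the comparison class went from 38.3 to 49.2 percentage points for Notch1, 37.0 to 58.4 for Notch2, 89.3 to 97.8 for Notch3, 11.4 to 32.2 for Notch4, 50.9 to 80.5 for Jag1, 13.7 to 35.0 for Jag2, 14.3 to 36.9 for Dll1 and 17.5 to 41.6 for Dll4.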
